A study of Mus musculus with 6 samples.

Results

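The S100 family is a group of small calcium-binding proteins, each with a pair of EF-hand loops, that work mostly as dimers. The 10 members described are S100a1, S100a4, S100a6, S100a8, S100a9, S100a10, S100a11, S100a13, S100a16 and S100b. They were chosen by gene symbol from 54309 genes in the transcript tables, where they hold 26 of 140789 transcripts. The rule itself uses no measured value, but the list of members was drawn up with earlier results of these data known. The mRNA came from the left sciatic nerve of C57BL/6 mice, 6 to 8 weeks old, whose nerve had been cut at mid-thigh level (axotomy). The proximal stump, the segment still attached to the dorsal root ganglia, was taken 24 h later. There were 3 male and 3 female libraries, and each library pooled the nerves of 2 mice, so that spread between libraries is spread between pools. All 6 libraries carry the same injury and no genetic change. Uninjured and sham nerves are not analysed here, and every contrast is between injured male and injured female nerve.

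Calcium binding opens a hydrophobic face on most S100 proteins, which then grips a partner such as an annexin, a cytoskeletal protein or a kinase. S100a10 is the exception, fixed in the open form without calcium. Some members also leave the cell and act as danger signals: S100a8 and S100a9 form calprotectin, a heterodimer that fills the cytoplasm of neutrophils and is recognised by Tlr4, and several members bind Ager (RAGE). In peripheral nerve S100b is the classic Schwann cell marker, while S100a4 and S100a6 are widely expressed by fibroblasts and other motile or dividing cells.

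Of the 10 genes, 9 lay on chromosome 3 between positions 90416091 and 93474510 of GRCm39 (annotation of GENCODE M39), a stretch of 3.06 Mb that also held the genes between them, 78 protein-coding genes in all. S100b lay apart, at chr10:76085090-76097159 on the plus strand. S100a8 (chr3:90567118-90578128, plus strand) and S100a9 (chr3:90599931-90603071, minus strand) were neighbours on opposite strands, and the dominant transcript of each of these 3 genes had 3 exons. Bases just upstream of their annotated transcript starts are shown because these are the members whose libraries differed most. The sequences come from RefSeq promoter windows on GRCm38.p6 and are written 5′ to 3′ along the gene's strand, at chr3:90668821-90668977 (plus strand) for S100a8, chr3:90695765-90695971 (minus strand) for S100a9 and chr10:76253586-76253649 (plus strand) for S100b. Capitals mark matches to TTNNGNAA, the letters of a C/EBP motif, a family of factors known from myeloid genes.
S100a8: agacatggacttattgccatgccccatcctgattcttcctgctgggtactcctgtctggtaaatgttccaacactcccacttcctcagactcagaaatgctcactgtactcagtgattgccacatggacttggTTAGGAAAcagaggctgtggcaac
S100a9: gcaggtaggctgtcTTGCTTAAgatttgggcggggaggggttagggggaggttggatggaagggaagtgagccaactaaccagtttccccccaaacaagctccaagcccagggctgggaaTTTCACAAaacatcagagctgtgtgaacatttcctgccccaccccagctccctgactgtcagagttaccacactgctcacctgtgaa
S100b: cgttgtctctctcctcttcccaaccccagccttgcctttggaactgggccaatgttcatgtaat

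Over the 250 bases before the start, searched on both strands, TTNNGNAA was found in S100a8 and S100a9 alone among the 9 members with a promoter entry. It was also found in 36.8% of 32851 mouse promoters of that length, so a match by itself is common. The E box CAGCTG was found in S100a8, against 13% of all promoters, and like the TATAAA of that gene it lies beyond the printed bases, which stop at the earlier GENCODE start while the search ran to the RefSeq start. The GC box GGGCGG was found in S100a9 and S100a11, against 32.7%. TATAAA was found in S100a4 and S100a8 (12.4% of all) and the AP-1 letters TGANTCA in S100a11 (6.7% of all). The SOX letters ACAATG (10.7% of all) and the NF-kB motif (1.4% of all) were in none of the 9 windows. The windows of S100a1 and S100a13 overlapped by 204 bases, since the 2 genes run head to head with starts 105 bases apart on GRCm38.p6. These matches describe letters and were not tested as binding sites.

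The libraries held 69848769, 56486909 and 51936195 estimated counts in males 1, 2 and 3, and 49158283, 54434147 and 64802091 in females 1, 2 and 3. Xist, expressed from the inactive X, was at 0.106 to 2.87 counts scaled by library size (CPM) in male libraries and at 419 to 724 CPM in female libraries. Female 3 alone among the females held counts of the Y-linked gene Ddx3y, 139 counts or 2.21 CPM, against 40.2 to 55.6 CPM in males. It also lay nearest to the males on the first principal component, which carried 43.8% of the variance. Of 18424 genes that passed the filter on low counts, 971 (5.27%) had an adjusted p under 0.1 by edgeR's quasi-likelihood test with Benjamini-Hochberg adjustment, 702 higher in males (3.81%) and 269 lower in males (1.46%). That count was 7 without male 3, 1 without female 1, 327 without female 2 and 2612 without female 3. Myelinating Schwann cell markers, which define the tissue as nerve, summed to 51263 to 60825 CPM in males and 21799 to 28868 CPM in females.

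All 10 S100 genes passed the filter, and as a group they were among the abundant mRNAs of the injured stump. The list was drawn up with earlier results of these data known, and of the 8 S100 genes left out 4 passed the filter. Passing and abundance were thus not independent of the choice of these 10 members. Their summed level was 8141, 10180 and 6903 TPM, a length-corrected share of transcripts, in males 1, 2 and 3, and 9526, 7316 and 9579 TPM in females 1, 2 and 3. The ranges of the sexes overlapped, and the family made up 0.69 to 1.02% of all TPM. Since TPM is per length, it also orders the genes within the family.

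S100a6 (calcyclin), a member bound by the ubiquitin-ligase adaptor Cacybp, led the order with a mean of 2702 TPM over the 6 libraries and ranked 37 among all genes listed. S100a11, an annexin A1 partner, averaged 1461 TPM, and S100a4, a binder of non-muscle myosin IIA, averaged 1313 TPM. The calprotectin subunits came next at 978 TPM for S100a9 and 765 TPM for S100a8, followed by S100a10, the light chain of the annexin A2 tetramer, at 650.2 TPM. S100b averaged 322 TPM, S100a16 227 TPM, S100a13 115 TPM and S100a1 74.1 TPM. CPM per kilobase of effective length gave the same order for all 10. Over the 6 libraries the range of S100a6 lay wholly above that of S100a11, S100a10 above S100b, S100a16 above S100a13 and S100a13 above S100a1. The other neighbours overlapped, although S100a9 exceeded S100a8 in each of the 6 libraries and S100a11 exceeded S100a4 in 5 of them.

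**Figure D1:**
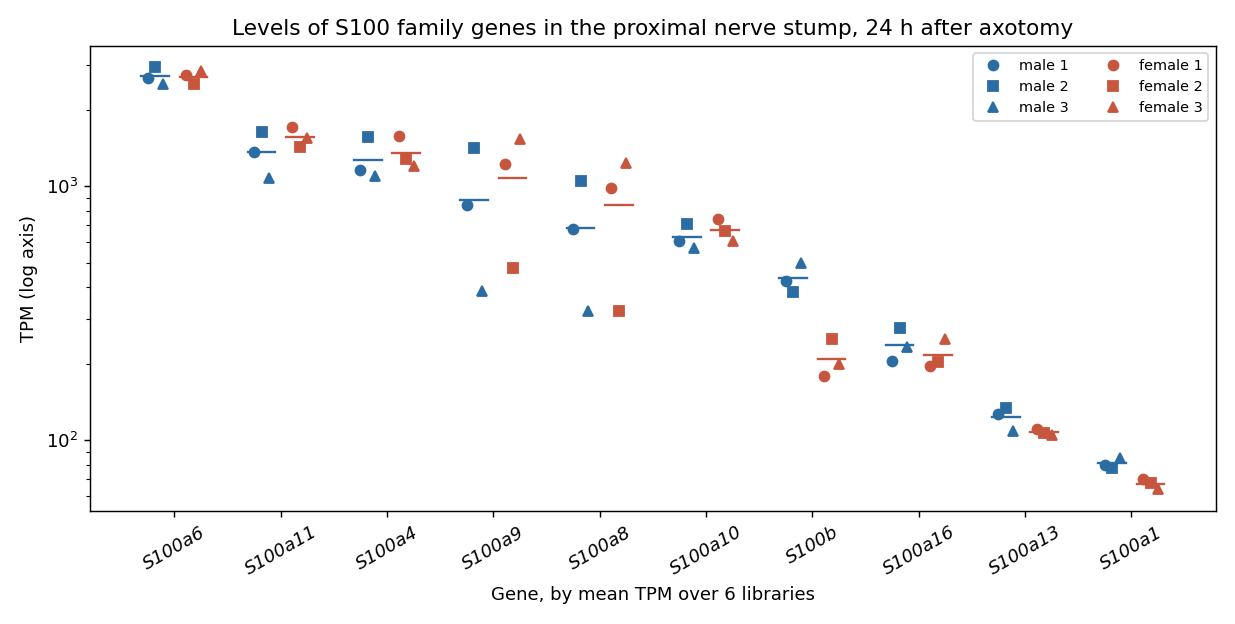
Level of each S100 gene in TPM (log axis), ordered by the mean over 6 libraries, with 1 point per library for 3 male and 3 female pools and a bar for the mean of each sex. S100a6 lies at or above 2515 TPM in every library, S100b alone separates the sexes widely, and S100a8 and S100a9 spread over more than 3-fold within each sex.

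Among the 10 genes 1 passed the threshold, S100b, which was higher in males, against 5.27% of all genes tested. S100b and S100a1 did not overlap between the sexes, both higher in males. That is 2 of 10, against 25.5% of all genes not overlapping in either direction and 13.9% not overlapping and higher in males. The log2 fold change, male over female, was positive for 5 members and negative for 5, with a median of -0.0069 against -0.03 for all genes, and the median size of the change was 0.12 against 0.23. In bulk tissue, fewer cells of a type and less RNA per cell cannot be told apart.

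**Figure D2:**
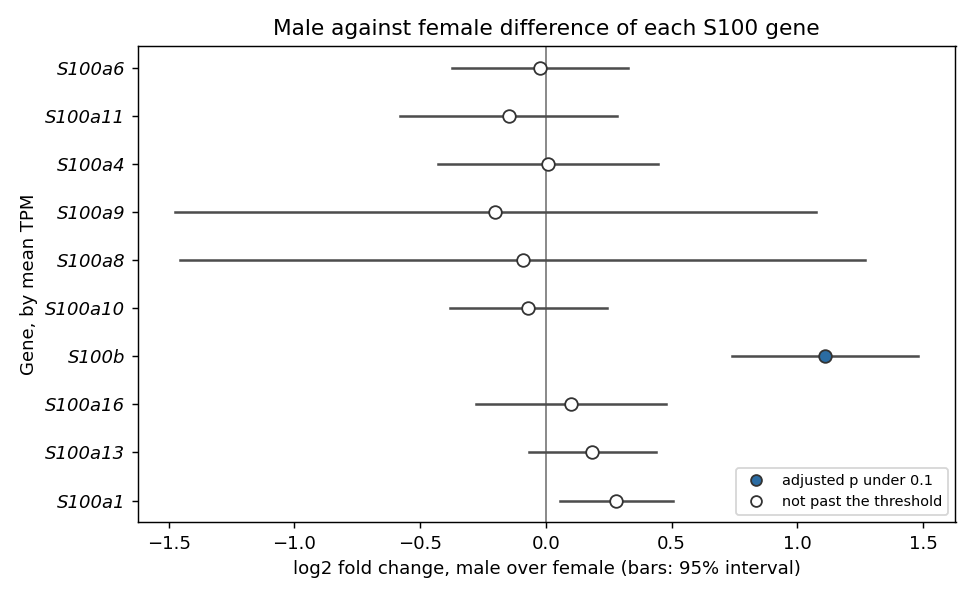
Log2 fold change, male over female, of each S100 gene with its 95% interval from edgeR (3 male and 3 female pools), ordered from the highest mean TPM at the top. S100b at 1.11 is the filled point past the threshold, while the intervals of S100a8 and S100a9 reach beyond -1.4 and 1.0.

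S100b, the glial member, is secreted by glia and marks Schwann cells in nerve. It was at 447, 412 and 520.4 CPM in males 1, 2 and 3, and at 174, 239 and 226 CPM in females 1, 2 and 3. The lowest male library held more than the highest female library. The means were 460 ± 55.4 CPM in males and 213 ± 34.3 CPM in females (SD, n = 3 each). The log2 fold change was 1.11 ± 0.16 (SE), or 2.16-fold with a 95% interval of 1.67 to 2.79 (edgeR quasi-likelihood adjusted p = 0.0347), and S100b ranked 68 by p among the genes tested. Without male 3 it was 1.01 (adjusted p = 0.139) and without female 1 it was 0.98 (adjusted p = 0.146), so these libraries decided the call though not the direction. On the TPM scale S100b was at 425, 382 and 499.9 TPM in males and 178, 250.2 and 199 TPM in females. It had 1 listed transcript. Read along the transcript strand, 1 of the 1657 stretches of 31 bases in it occurs in another gene. Few of its reads could thus be shared with a near copy on that strand. Dip2a overlaps S100b on the opposite strand, and the library preparation kept strand.

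Myelin genes moved with S100b. Among 8 markers of myelinating Schwann cells, 5 rose in males and 0 fell, Mbp, Prx, Ncmap and Pllp among them, against 3.81% of all genes higher in males, with a median log2 fold change of 1.04. Mbp, which compacts the cytoplasmic faces of myelin, had a log2 fold change of 1.13 (adjusted p = 0.0592). Of the 6 other Schwann cell markers, with a median of 0.14, 0 passed the threshold by edgeR, against 5.27% of all genes. An unadjusted p under 0.05 was met by 2 of the 6, against 20.7% of all genes. By the DESeq2 Wald test 2 of the 6 passed, against 2436 of 18424 genes. Sox10, the lineage transcription factor, was at 411, 331 and 345 CPM in males and 237, 247 and 301 CPM in females (log2 fold change 0.47, adjusted p = 0.136). The calls of the 5 myelin genes were lost without male 3 and without female 1, as for S100b, and those of Mbp and Prx also without male 1, male 2 or female 2.

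The ratio of S100b to Sox10, in TPM, was 1.99, 1.98 and 2.67 in males and 1.62, 1.95 and 1.35 in females, with no overlap, the closest pair being male 2 and female 2. How far the amount of myelinating Schwann cell RNA accounts for the S100b difference was not tested.

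S100b is also expressed by astrocytes of the central nervous system. Of 5 astrocyte markers, Aqp4 and Slc1a2 were higher in males (log2 fold changes of 6.30 and 2.94, edgeR adjusted p = 0.0323 and 0.0347). That is 2 of 5, against 3.81% of all genes. The other 3 had a negative log2 fold change and did not pass. The Slc1a2 call was lost without male 3 and without female 1, and the Aqp4 call without female 1. Aqp4, the water channel of astrocyte endfeet, was at 1.45, 4.13 and 4.6 CPM in males and 0.0195, 0.0709 and 0.0318 CPM in females. The 5 markers summed to 93.1 to 120.0 CPM in males and 90.9 to 103 CPM in females, and these sums overlapped. The part of astrocyte RNA in the S100b difference was not tested.

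S100a8 and S100a9, the calprotectin subunits, spread over libraries more than any other member. S100a8 was at 140.9, 251.2 and 71.0 CPM in males 1, 2 and 3, and at 164.7, 56.8 and 272.2 CPM in females 1, 2 and 3. S100a9 was at 241.3, 430.7 and 113.9 CPM in males, and at 333.5, 123.1 and 446.4 CPM in females. Both genes were high in male 2, female 3 and, less so, female 1, and low in male 3 and female 2, so the sexes overlapped almost fully. From lowest to highest library S100a8 spanned 3.54-fold in males and 4.79-fold in females, and S100a9 spanned 3.78-fold in males and 3.63-fold in females. For the 8 other members the span within a sex was at most 1.58-fold.

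The log2 fold change was -0.09 ± 0.59 for S100a8 (adjusted p = 0.945) and -0.20 ± 0.55 for S100a9 (adjusted p = 0.865). The 95% interval of the male to female ratio ran from 0.365 to 2.41 for S100a8 and from 0.360 to 2.11 for S100a9, so a difference of 2-fold either way was not detectable with this spread between pools. Leaving out male 3 turned the log2 fold changes to 0.25 for S100a8 and 0.16 for S100a9, and leaving out female 3 turned them to 0.48 and 0.20. Without male 2 they were -0.62 and -0.74, and without female 2 they were -0.50 and -0.58. With the skeletal muscle score as a covariate they were -0.89 (adjusted p = 0.273) and -1.05 (adjusted p = 0.208), the lowest of all settings, by edgeR.

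The 2 subunits varied together. The ratio of S100a8 to S100a9, in TPM, was 0.8, 0.742 and 0.830 in males, and 0.809, 0.679 and 0.806 in females. The TPM of S100a8 itself differed by up to 3.825-fold within a sex. S100a9 had a second protein-coding transcript, S100a9-202, at 14.9 to 17.6% of its TPM, and S100a8 had a retained-intron transcript at 1.57 to 2.61%. The shares overlapped between the sexes.

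Neutrophil markers had the same highest and lowest male library. Of 12 listed, 8 were tested and 0 passed the threshold by edgeR, although 2 had an unadjusted p under 0.05 and 2 passed by the DESeq2 Wald test. All 8 had a negative log2 fold change (median -0.56). Their summed level was 194.9, 324.9 and 151.9 CPM in males 1, 2 and 3, and 522.1, 207.4 and 441.3 CPM in females 1, 2 and 3. Male 2 was the highest male and male 3 the lowest male for 8 of the 8, and female 2 was the lowest female for 7 of them. The highest female was female 1 for 6 of the 8 and female 3 for 2, whereas S100a8 and S100a9 were highest in female 3. Male 2 was also the highest male for 8 of 8 macrophage markers and 5 of 6 adipocyte markers. The share of all genes with such an order was not counted. Cxcr2, the chemokine receptor of circulating neutrophils, was at 36.9, 70.2 and 30.5 CPM in males and 86.2, 27 and 84.6 CPM in females. The granule genes of immature neutrophils, Mpo, Elane, Ngp and Camp, were at most at 0.213 CPM. The 8 macrophage markers summed to 1436 to 2463 CPM in males and 2227 to 3492 CPM in females. All 8 had a negative log2 fold change (median -0.73). Of these, 0 passed by edgeR, 4 had an unadjusted p under 0.05 and 4 passed by the DESeq2 Wald test. For comparison, 5.27% of all genes passed by edgeR and 20.7% had an unadjusted p under 0.05. By the DESeq2 Wald test 2436 of 18424 genes passed. Haemoglobin and Alas2, markers of blood left in the tissue, summed to 6611, 3288 and 10391 CPM in males and 10177, 2983 and 15963 CPM in females. Among females this sum and S100a8 had the same order, female 3 over female 1 over female 2, whereas among males male 2 had the most S100a8 and the lowest sum. The part of neutrophil or blood content in the S100a8 and S100a9 levels was not tested.

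**Figure D3:**
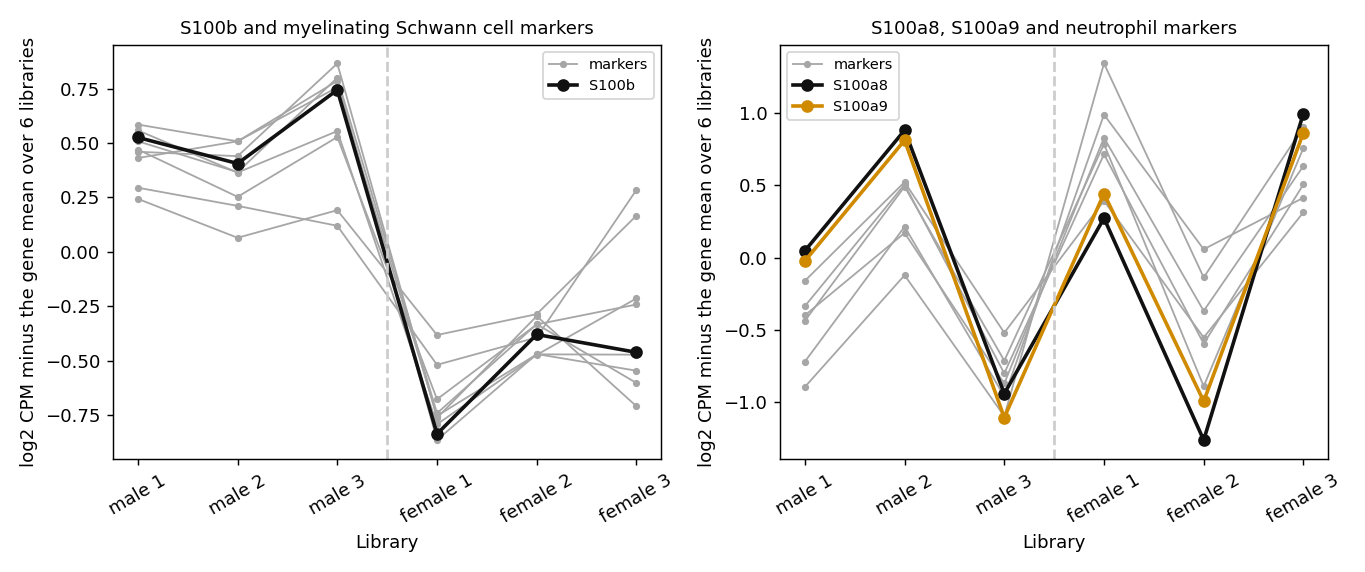
Log2 CPM minus each gene's mean over the 6 libraries, by library, with males to the left of the dashed line and lines joining the points of 1 gene. On the left, S100b (black) and 6 of 8 myelinating Schwann cell markers (grey) are higher in the 3 males than in any female. On the right, the neutrophil markers drawn (grey) are Cxcr2, Csf3r, Mmp9, Mmp8, Lcn2 and Retnlg. S100a8 (black) and S100a9 (orange) are highest in male 2 and female 3 and lowest in male 3 and female 2. Each marker drawn is highest among males in male 2 and lowest in male 3, and highest among females in female 1, unlike S100a8 and S100a9.

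Because calprotectin moved so much, it shaped the make-up of the family. S100a8 and S100a9 together took 18.7, 24.2 and 10.3% of the summed S100 TPM in males 1, 2 and 3, and 23.1, 10.9 and 28.8% in females 1, 2 and 3. Without the pair the family summed to 6617, 7718 and 6193 TPM in males and 7323, 6519 and 6818 TPM in females, a much tighter range. S100a6 held the largest share in each library, from 28.7% in female 1 to 36.4% in male 3. S100b took 5.21, 3.75 and 7.24% in males and 1.87, 3.42 and 2.07% in females, with no overlap.

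**Figure D4:**
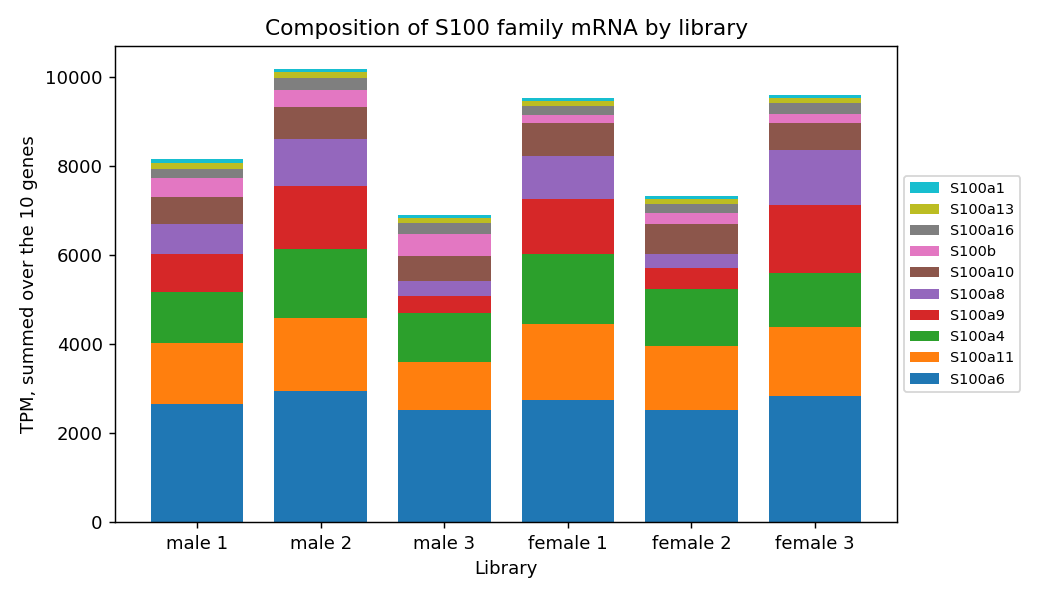
Summed TPM of the 10 S100 genes in each library, males on the left, stacked by gene. The stack is tallest in male 2 (10180 TPM) and shortest in male 3 (6903 TPM), and the bands of S100a8 and S100a9 account for the widest swings.

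S100a10 and S100a11 are the annexin-binding members. S100a10 bridges 2 annexin A2 molecules at the inner face of the plasma membrane and carries ion channels to the surface. It was at 221, 264 and 206 CPM in males and 269, 224 and 232 CPM in females (log2 fold change -0.07 ± 0.13, adjusted p = 0.804, ratio interval 0.768 to 1.18). S100a11 was at 325, 405 and 257 CPM in males and 408, 314 and 371 CPM in females (-0.15 ± 0.19, adjusted p = 0.688, ratio interval 0.669 to 1.22). Both overlapped between the sexes, and for both male 2 was the highest male and male 3 the lowest.

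Anxa2, the partner of S100a10, had a log2 fold change of -0.19 (adjusted p = 0.539). The ratio of S100a10 to Anxa2, in TPM, was 0.591, 0.574 and 0.562 in males and 0.600, 0.585 and 0.489 in females, with female 3 lowest and the sexes overlapping. Anxa1, the partner of S100a11, had a log2 fold change of -0.45 (adjusted p = 0.118) and did not overlap between the sexes. The ratio of S100a11 to Anxa1 was 7.39, 9.41 and 6.90 in males and 6.18, 5.12 and 8.09 in females, a wider and overlapping range.

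S100a4 and S100a6 are the abundant members of stromal and motile cells. S100a4 was at 281, 405 and 274 CPM in males and 372, 282 and 301 CPM in females, with a log2 fold change of 0.0079 ± 0.19 (adjusted p = 0.985, ratio interval 0.743 to 1.36). S100a6 was at 1012, 1098 and 930.1 CPM in males and 1044, 904 and 1138 CPM in females (-0.02 ± 0.15, adjusted p = 0.950, ratio interval 0.773 to 1.26). For both, a change of 1.5-fold lies outside the interval in each direction. S100a4 shared 272 of its 473 stretches of 31 bases with Gm42674, an overlapping gene model on the same strand that received at most 4.55 counts in any library, against 14058 or more for S100a4. A retained-intron transcript of S100a6, S100a6-202, took 3.13, 3.69 and 4.83% of its TPM in males and 7.83, 4.52 and 2.21% in females, with overlap. The fibroblast markers summed to 5825 to 8437 CPM in males and 5722 to 7302 CPM in females.

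S100a1, S100a13 and S100a16 were the lowest of the 10. S100a1, best known as a regulator of calcium handling in heart and skeletal muscle, was at 31, 30.4 and 32.4 CPM in males and 26.9, 24.4 and 25.9 CPM in females. Every male library held more than every female library, within a tight spread. The log2 fold change was 0.28 ± 0.10, a ratio of 1.21 with an interval of 1.04 to 1.42, and did not pass after adjustment over all genes (unadjusted p = 0.0211, adjusted p = 0.167 by edgeR). An unadjusted p under 0.05 was met by 20.7% of all genes and by 2 of the 10 members. Skeletal muscle markers summed to 6.25, 3.47 and 605 CPM in males and 346, 507 and 31.8 CPM in females, and their part in the S100a1 levels was not tested.

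S100a13, which takes part in the release of Fgf1 from cells, was at 50.1, 53.4 and 42.8 CPM in males and 44.5, 40.2 and 44.1 CPM in females (0.19 ± 0.11, adjusted p = 0.373, ratio interval 0.954 to 1.35). S100a1 lies within the span of S100a13 on the opposite strand. Read along the transcript strand, their transcripts shared 0 stretches of 31 bases with any other gene. Matches to the opposite strand, where these genes overlap, were not searched. S100a16, a member with 1 working calcium site in each subunit, was at 144, 187 and 159 CPM in males and 137, 134 and 186 CPM in females (0.10 ± 0.16, adjusted p = 0.767, ratio interval 0.824 to 1.39). S100a16 had the most listed transcripts, 8, and for 5 of them the share of the gene's TPM did not overlap between the sexes. The shares overlapped for every transcript of the other members. How often shares fail to overlap among all transcripts was not counted. The levels of 25.5% of all genes did not overlap. The main transcript of S100a16, S100a16-202, held 75.7 to 77.9% in males and 73.0 to 75.6% in females. S100a16-204 held 1.35 to 2.70% in males and 3.27 to 4.26% in females. Also among the 5 was the scarce S100a16-206, at 0.386 to 0.542% in males and 0 to 0.152% in females. The shares of 1 gene sum to a whole and the transcripts share exons, so the 5 are not separate observations, and they were not tested.

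Other S100 genes were scarce in this tissue. Of 8 listed outside the 10 members, 4 passed the filter and 0 passed the threshold by edgeR (5.27% of all genes). Of the 4, 1 had an unadjusted p under 0.05 (20.7% of all genes). By the DESeq2 Wald test 1 passed (2436 of 18424 genes). S100a7a, a relative of the skin antimicrobial protein psoriasin, was at 5.68, 4.25 and 3.69 CPM in males and 1.21, 2.98 and 1.57 CPM in females. The male libraries were all higher, but the log2 fold change of 1.24 ± 0.35 had an adjusted p of 0.116. S100a2, S100a3 and S100a14 stayed below 1 CPM in every library, S100a5, S100a7l2 and S100g had 11, 10 and 20 counts over all 6 libraries, and S100z had 0 in each.

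Some receptors for secreted S100 proteins were lower in males. Of 8 receptor genes 3 were lower in males, against 1.46% of all genes, and 0 were higher, with a median log2 fold change of -0.47. Tlr4, the receptor of calprotectin and of bacterial lipopolysaccharide, was at 24.9, 26.1 and 22.9 CPM in males and 54.7, 46.9 and 37.6 CPM in females (-0.91, adjusted p = 0.0389). The groups did not overlap. Cd36, a scavenger receptor and fatty acid carrier that calprotectin binds, was at 47.8, 45.9 and 42.7 CPM in males and 136, 98.5 and 79.6 CPM in females (-1.20, adjusted p = 0.0366). Alcam, a receptor described for S100b in cell culture, fell by 0.69 on the log2 scale (adjusted p = 0.0750). All 3 calls were lost without male 3 and without female 1, that of Alcam also without male 1 and without female 2, and the 3 genes kept their direction in each of 17 settings. Ager, the general S100 receptor, was at 1.9, 2.32 and 1.77 CPM in males and 2.30, 1.52 and 2.05 CPM in females (0.03, adjusted p = 0.958). Cd36 is also made by adipocytes and Tlr4 by macrophages. The 6 adipocyte markers summed to 29.95, 176 and 76.4 CPM in males and 399, 245 and 58.7 CPM in females, the macrophage sums are given above, and their part in the receptor levels was not tested.

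Among 24 partners of S100 proteins inside the cell, 22 were tested, 2 were higher in males (3.81% of all genes) and 0 lower (1.46% of all genes), while 17 had a negative log2 fold change (median -0.24). Of the 22, 8 had an unadjusted p under 0.05, against 20.7% of all genes. By the DESeq2 Wald test 5 passed, against 2436 of 18424 genes. The 2 higher in males by edgeR were Fgf1 and Ndrg1. Fgf1, the growth factor exported with S100a13, was at 341, 280 and 389 CPM in males and 180, 247 and 189 CPM in females (0.71, adjusted p = 0.0863). Ndrg1 is a Schwann cell gene needed for myelin upkeep (0.96, adjusted p = 0.0643). Myh9, the heavy chain bound by S100a4, had a log2 fold change of -0.44 (adjusted p = 0.108). Among 18 EF-hand genes outside the family, 3 were higher in males (3.81% of all genes) and 1 lower (1.46% of all genes), with a median of 0.17. Efhd1, a mitochondrial calcium sensor, rose by 0.75 (adjusted p = 0.0419), Calb2 and Calb1 passed at about 1 CPM or less, and Pvalb, abundant in fast muscle and in some neurons, fell by 2.42 (adjusted p = 0.0737). The calls of Fgf1, Ndrg1, Efhd1, Calb1, Calb2 and Pvalb were each lost without male 3 and without female 1. Some were also lost without male 1 (Fgf1, Ndrg1, Pvalb), male 2 (Calb1, Calb2, Pvalb) or female 2 (Ndrg1, Efhd1, Calb2, Pvalb). The Pvalb call was also lost with the skeletal muscle score as a covariate and by limma-voom, and it held in 8 of 17 settings.

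Genes with the profile most like each member were sought among 13478 protein-coding genes outside the family with a mean of at least 1 CPM, by the root mean square (RMS) difference of log2 CPM, centred per gene, over the 6 libraries. The measure describes 6 libraries that differ in depth and tissue make-up. For S100b, whose own SD was 0.64, the nearest were Hepacam (0.04), a glial cell adhesion protein, Paqr6 (0.05), a membrane progestin receptor, and Col23a1 (0.06), a transmembrane collagen. For S100a8 (SD 0.93) they were Stfa2l1 (0.20), a stefin, Hdc (0.25), which makes histamine, and Cstdc4 (0.26), and for S100a9 (SD 0.87) Hdc (0.15), Stfa2l1 (0.16) and Arg2 (0.21). The pair S100a8 and S100a9 differed from each other by 0.16. The other 7 members had SDs of 0.13 to 0.26, so many genes come close to them: Elp5 to S100a6 (0.02), Ndufa13 to S100a1 (0.01), Siah1b to S100a13 (0.02), Faap100 to S100a10 (0.03), Map11 to S100a4 (0.03), Atp6v1g1 to S100a16 (0.03) and Rhog to S100a11 (0.05). Within the family the closest pair was S100a10 with S100a4, at 0.10.

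Libraries within a sex were ordered alike in part. Male 2 was the highest male for 8 of the 10 members and male 3 the lowest male for 7, while female 2 was the lowest female for 9. How often these libraries hold these places among all genes tested was not counted, so the order is not shown to be particular to the family. S100b and S100a1 were highest among males in male 3, and S100a16 was lowest in male 1. The highest female was female 1 for 5 members, female 3 for 4 and female 2 for 1. S100b was the only member whose lowest female was female 1.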

How the data were processed

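Salmon tables of 6 libraries were analysed, 3 male and 3 female by their labels. Poly-A RNA libraries kept strand and were read as paired ends. The submitters' processing notes name Trimmomatic 0.39, Salmon 1.5.2 and MultiQC 1.9. The authors deposited estimated counts per transcript, not normalised and not always whole, in which reads matching several transcripts are divided by a model. The authors also deposited TPM, corrected for effective length. Both were summed per Ensembl gene identifier, and estimated counts were rounded. In R 4.3.3, edgeR 4.0.16 (filterByExpr, TMM, the quasi-likelihood functions glmQLFit and glmQLFTest, a model of sex alone) tested all genes, with Benjamini-Hochberg adjustment and a threshold of 0.1, as in the study. CPM use TMM-scaled library sizes. The SE was the size of the log2 fold change over the square root of F, and 95% intervals came from the same fit.

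The rule that finds members goes by symbol alone, but the members and gene lists were chosen with earlier results of these data known. Named genes were the members, the other S100 genes, up to 4 per list by smallest p, and the 3 nearest in profile to a member; some are not reported here. Myelin and astrocyte genes outside that rule were chosen after their values were seen, as were Cxcr2, Sox10 and the genes at low counts. Coordinates are from GENCODE M39 on GRCm39, where 53700 of 54309 genes (98.9%) were found, and promoters from RefSeq on GRCm38.p6. No library was a copy of another (chi-square per degree of freedom at least 48.9 within a sex). On simulated data of 18424 genes with 200 changed, the test recovered 51% of 2-fold and 84% of 4-fold changes with 29 false calls. Alternatives were other scalings, filters, tests (limma 3.58.1, DESeq2 1.42.0), a length offset, a muscle covariate, a replicate block and each library left out.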

Additional observations from a re-analysis of the deposited data

How the results depend on the processing

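The count of genes past the threshold, 971, was 284 at an adjusted p under 0.05, 2436 by the DESeq2 Wald test, 466 by limma on log2(TPM + 0.1), 1617 with no filter on low counts and 1 to 2612 with a library left out. S100b kept its direction in all 18 settings (log2 fold change 0.98 to 1.22), and lost the call in 3. The replicate numbers did not pair libraries (correlations of same-numbered deviations of -0.30 to -0.04 over 3 pairs). With the replicate block 56 genes and 0 members passed, and S100b had 1.12 (adjusted p = 0.118). With a library left out 0 to 1 members passed. The cause of these changes was not tested.

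Of 180 member values, 154 kept direction and side of the threshold, 3 lost the call and 23 changed sign, none of the 23 with an adjusted p under 0.606. S100a4 was -0.038 by library size alone, -0.0070 by limma-voom, -0.097 by limma on log2(TPM + 0.1), -0.045 with the length offset, -0.11 with the muscle covariate, -0.0067 with the replicate block and -0.17 to 0.13 with a library left out. S100a6 was 0.0039 by limma on log2(TPM + 0.1), 0.000935 at a mean CPM of 1 or more, 0.031 with the length offset, 0.0096 for protein-coding genes alone and -0.11 to 0.058 with a library left out. With the muscle covariate S100a16 was -0.015, S100a8 -0.89 and S100a9 -1.05. With a library left out S100a8 ran from -0.62 to 0.48, S100a9 from -0.74 to 0.20, S100a10 from -0.14 to 0.012 and S100a11 from -0.29 to 0.0036. The order of levels did not depend on the scale (TPM or CPM per kilobase). With 3 pools per sex, the spread between pools and not depth limits S100a8 and S100a9.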
